A study of Mus musculus with 8 samples.

Results

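The 33 cell cycle and proliferation genes described here were taken from raw counts per gene of vWAT (visceral white adipose tissue, the epididymal depot), in which 31053 genes are listed. They were chosen by symbol, through the Ensembl identifier of each row and the mouse GRCm38 annotation, and all 33 were found. KIKO mice are a germline line with a knock-in allele opposite a knockout allele, and WT mice were littermates on the C57BL/6 background. All 8 mice were males aged 8 months, 4 WT and 4 KIKO, with 1 library per mouse and no further treatment. The alleles are carried by every cell, so a difference in vWAT is not tied to the adipocytes, and the RNA came from whole tissue, in which fewer dividing cells and less RNA per cell cannot be told apart.

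Cells that enter division pass from G1 into S phase, in which the DNA is copied, and then through G2 into mitosis. Cyclin E and its kinase switch on the E2F transcription factors, which drive the genes of DNA replication. The genes of G2 and mitosis peak later and are held down in resting cells by the DREAM complex, which binds a promoter element called the cell cycle genes homology region (CHR), often beside CCAAT boxes bound by NF-Y. Mature adipocytes do not divide, and the cycling cells of a fat depot are mainly found among its progenitors, macrophages and endothelial cells.

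Promoters are shown for 4 tested genes of different roles, each with at least as many of these elements as any other tested gene of its role, and, in the case of *Mki67*, for the tested gene with the largest genotype difference. The sequences are RefSeq promoters on GRCm38.p6, and each run is the 250 bases before the annotated start, 5′ to 3′ on the strand of the gene. Capitals mark matches on either strand. The letters searched were CCAAT for the CCAAT box, and for the CHR they were TTTGAA in its usual form and TTCGAA in its variant form. For the E2F site they were TTCCCGC and its variants, which were TTCGCGC in the first case, TTGCCGC in the second case and TTGGCGC in the last. *Top2a* (topoisomerase II alpha, which untangles DNA in mitosis; chr11:99024190-99024439, minus strand) has 6 CCAAT boxes and 4 CHR matches. *Ube2c* (the ubiquitin-conjugating enzyme of the anaphase-promoting complex; chr2:164769679-164769928, plus strand) has 6 CCAAT boxes and 1 CHR match. *Cenpf* (a kinetochore protein; chr1:189688087-189688336, minus strand) has 2 CCAAT boxes here, and its CHR match lies in the 50 bases after the start. *Mcm6* (a subunit of the replicative helicase; chr1:128359706-128359955, minus strand) has 2 CCAAT boxes and 4 overlapping E2F matches, and *Mki67* (chr7:135716380-135716629, minus strand) has 3 CCAAT boxes, 2 CHR matches and 1 E2F match.
Top2a: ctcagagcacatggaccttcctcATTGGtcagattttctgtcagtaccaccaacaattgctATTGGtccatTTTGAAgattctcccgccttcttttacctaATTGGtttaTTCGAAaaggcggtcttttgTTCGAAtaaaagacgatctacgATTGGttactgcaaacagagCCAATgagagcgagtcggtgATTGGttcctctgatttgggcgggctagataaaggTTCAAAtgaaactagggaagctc
Ube2c: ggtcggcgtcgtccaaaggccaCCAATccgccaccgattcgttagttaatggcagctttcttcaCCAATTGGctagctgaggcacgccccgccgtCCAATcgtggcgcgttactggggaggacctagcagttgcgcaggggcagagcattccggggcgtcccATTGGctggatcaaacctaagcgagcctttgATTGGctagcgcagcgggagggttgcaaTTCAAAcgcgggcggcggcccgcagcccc
Cenpf: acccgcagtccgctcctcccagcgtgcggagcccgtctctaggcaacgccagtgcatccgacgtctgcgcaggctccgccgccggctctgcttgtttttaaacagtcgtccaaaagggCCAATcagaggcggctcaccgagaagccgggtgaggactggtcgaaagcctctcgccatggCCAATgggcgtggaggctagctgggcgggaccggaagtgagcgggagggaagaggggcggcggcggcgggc
Mcm6: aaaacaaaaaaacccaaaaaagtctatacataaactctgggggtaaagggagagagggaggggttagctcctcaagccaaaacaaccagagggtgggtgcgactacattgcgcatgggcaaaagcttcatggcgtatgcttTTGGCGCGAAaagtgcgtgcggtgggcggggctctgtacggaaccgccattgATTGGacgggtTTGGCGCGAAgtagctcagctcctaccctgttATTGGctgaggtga
Mki67: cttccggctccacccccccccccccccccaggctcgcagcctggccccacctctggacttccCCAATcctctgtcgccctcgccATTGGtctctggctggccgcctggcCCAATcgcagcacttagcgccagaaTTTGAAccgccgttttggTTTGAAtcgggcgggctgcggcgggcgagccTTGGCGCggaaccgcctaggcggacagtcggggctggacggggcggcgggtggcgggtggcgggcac

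RefSeq promoters, of 250 bases before to 50 bases after the start, were matched for 27 of the 33 genes. The genes *Ccne2*, *Mcm4*, *Ccna2*, *Aurkb*, *Tpx2* and *Stmn1* had no entry. A CCAAT box was found in 23 of the 27 (85.2%). This compares with 41.1% of 27025 genes with a promoter entry, and 42.2% of the 8728 genes with an entry that were tested for genotype. A CHR match was found in 15 (55.6%, against 21.7% and 15.8%), and an E2F site in 9 (33.3%, against 10.9% and 19.3%). By role, the CHR was found in 10 of the 14 mitotic genes with an entry and in 2 of the 10 replication genes, and the E2F site in 2 and 6. An E2F match overlapped a CCAAT box in 2 of the 10 promoter entries with an E2F site. A match is only a run of letters and was not tested as a binding site.

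Between 2602189 and 3478539 counts were recorded per library. The 20 tested genes had a median of 18.6 counts per library, and 3 counts, the limit that a count of 0 allows, stand for 0.874 to 1.19 CPM (the count scaled to a common library size, here with TMM factors). The adipocyte markers *Adipoq* (4343 ± 710 CPM in WT and 6308 ± 494 CPM in KIKO vWAT, mean and SD of 4 mice each, as for all such values below) and *Plin1* (1193 ± 300 and 1402 ± 99.7 CPM) were present at high levels, and the epididymal *Crisp1* and *Lcn8* were at 0 in every library. Libraries differed in how their levels followed gene length. The Spearman correlation across genes of a library's level, relative to the mean library, with exon length was 0.278, 0.267, -0.102 and 0.119 in WT mice 1 to 4 and -0.176, -0.167, -0.109 and -0.230 in KIKO mice 1 to 4, so that WT mouse 3 stood with the KIKO mice.

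Of the 33 genes, 21 had 10 or more counts in 4 or more libraries. The test was run on the 20 kept by edgeR's filter for low counts, which left out *Plk1* (65 counts in all) from the 21. None of the 20 passed the test of KIKO against WT mice (edgeR's quasi-likelihood test, adjusted p under 0.05 over all 11080 genes tested), where 0.677% of all tested genes passed, 0.397% lower and 0.280% higher in KIKO mice. At an unadjusted p under 0.05, 3 were lower in KIKO mice (*Mki67*, *Cenpf* and *Top2a*) and 0 higher, against 9.06% lower and 7.13% higher of all tested genes. In DESeq2, limma-voom and limma-trend the count that passed was also 0, with 3 at an unadjusted p under 0.05 in each, although DESeq2 gave only 1 of the 20 an adjusted p. The log2 fold change was below 0 in 13 of the 20, against 51.0% of all tested genes, and its median was -0.18, against -0.0072 over all tested genes. The 95% interval of 13 of the 20 lay within a 2-fold change either way, so larger differences would be outside those intervals, while the interval of 17 included no change.

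**Figure D1:**
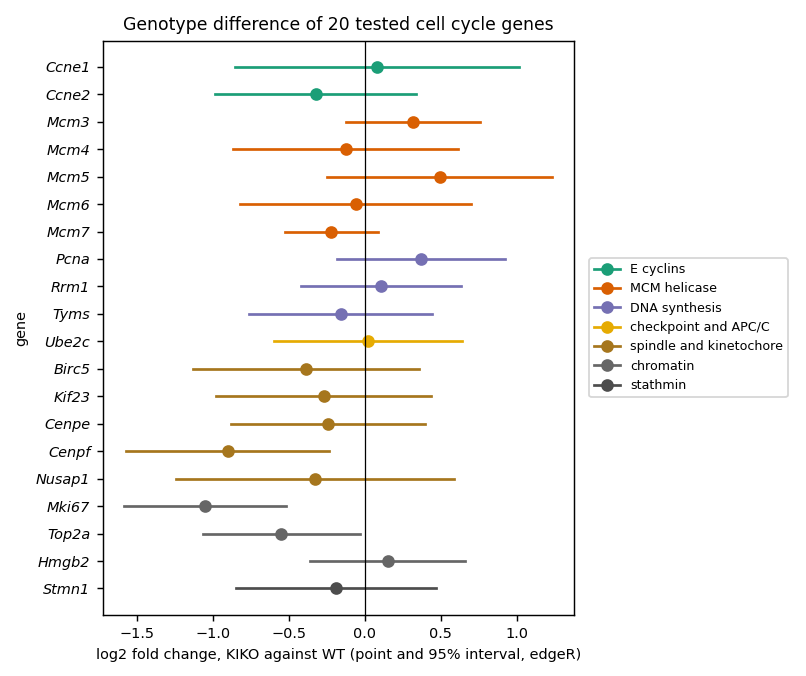
Log2 fold change of KIKO against WT vWAT for the 20 tested cell cycle genes, with the 95% interval from edgeR as a line and the colour giving the gene's role. The intervals of *Mki67*, *Cenpf* and *Top2a* lie below 0 and those of the other 17 genes include 0.

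*Mki67* encodes the Ki-67 protein, which coats mitotic chromosomes and is the usual stain for dividing cells. The gene (ENSMUSG00000031004, chromosome 7 of GRCm38 from 135689784 to 135716361) had 28, 28, 38 and 33 counts in WT mice 1 to 4 and 17, 14, 13 and 15 in KIKO mice 1 to 4. The highest KIKO mouse lay below the lowest WT mouse. The mean was 10.2 ± 1.97 CPM in WT mice and 4.93 ± 0.751 CPM in KIKO mice, a ratio of 0.482 (log2 fold change -1.05, SE 0.25). The unadjusted p of edgeR was 7.34e-04 and the adjusted p 0.0705, and the 2-sided exact permutation test gave 0.0286, the smallest p that 4 against 4 mice allow. Without a filter for low counts the same difference passed (adjusted p = 0.0313), in a fit in which 2.11% of all genes passed, and without WT mouse 3 the log2 fold change was -0.93 with an adjusted p of 0.0539.

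*Cenpf*, whose product sits at the kinetochore in G2 and mitosis, was the other tested gene whose groups did not overlap. This makes 2 of the 20, where 4.56% of all tested genes lay wholly lower in KIKO mice and 8.45% lay apart in either direction. The gene (ENSMUSG00000026605, chromosome 1 from 189640606 to 189688086) had 24, 19, 25 and 24 counts in WT and 16, 14, 7 and 10 counts in KIKO mice. KIKO mice 3 and 4 lay furthest from the WT mice, and KIKO mouse 2 (5.57 CPM) lay next to the lowest WT mouse (5.72 CPM). The mean was 7.40 ± 1.16 and 4.00 ± 1.66 CPM, with a log2 fold change of -0.91 (SE 0.32, edgeR adjusted p = 0.171).

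*Top2a* (ENSMUSG00000020914, chromosome 11 from 98992943 to 99024189) had 63, 57, 63 and 56 counts in WT and 43, 33, 20 and 63 counts in KIKO mice. The WT mice lay close together and the KIKO mice were spread out, since KIKO mouse 4 (18.4 CPM) was within the WT range of 17.2 to 21.0 CPM and KIKO mouse 3 (6.45 CPM) far below it. The mean was 19.2 ± 1.63 and 13.01 ± 4.93 CPM, with a log2 fold change of -0.55 (SE 0.24, edgeR adjusted p = 0.274). Without KIKO mouse 3 it was -0.32. The third chromatin gene, *Hmgb2*, a DNA-bending protein of dividing cells, was measured at 19.9, 15.7, 12.7 and 19.99 CPM in WT mice and 11.8, 28.2, 18.1 and 18.4 CPM in KIKO mice. KIKO mice held both its lowest and its highest value (log2 fold change 0.15, SE 0.24, edgeR adjusted p = 0.802).

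*Mki67*, *Cenpf* and *Top2a* are long genes, with 10061, 15433 and 9013 exon bases in the annotation. Across the whole table of tested genes, exon length and log2 fold change had a Spearman's rho of -0.312 (11078 genes, which share the 8 libraries), and over the 20 cell cycle genes at -0.472. A cut at 9000 exon bases, just below the length of *Top2a*, takes in all of these named genes. Of the 1591 tested genes with 9000 or more, 75.1% lay below 0, with a median of -0.17. For the 9487 shorter genes the share was 46.9%, with a median of 0.02. *Rrm1*, with 11012 exon bases, had a log2 fold change of 0.11. With an offset for the length trend of each library, added after the data were examined, the log2 fold changes were -0.92 for *Mki67* (adjusted p = 0.143), -0.69 for *Cenpf* (0.369) and -0.43 for *Top2a* (0.460), and 1 of the 20 genes kept an unadjusted p under 0.05. The part of length in these differences was not tested beyond this.

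**Figure D2:**
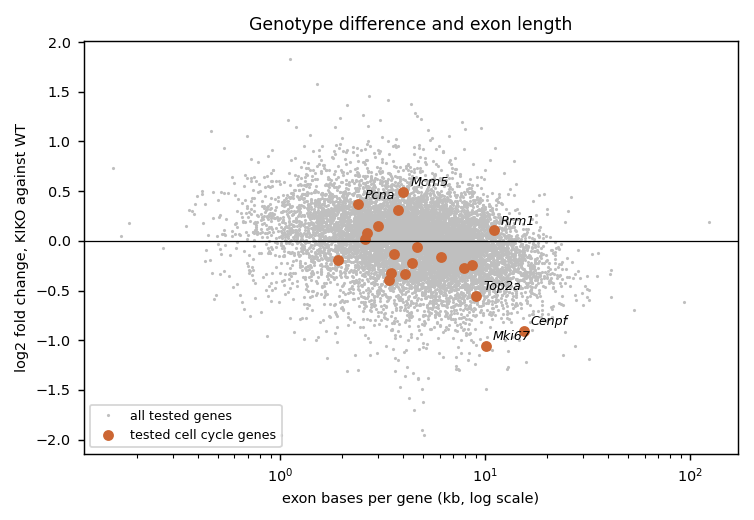
Log2 fold change of KIKO against WT vWAT (vertical axis) against exon bases per gene in kb (horizontal, log scale) for all tested genes in grey and the 20 cell cycle genes in orange. Genes of 9000 or more exon bases have a median of -0.17, and *Mki67* (-1.05) and *Cenpf* (-0.91) lie further below 0, whereas *Rrm1* lies at 0.11.

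The other spindle and kinetochore genes had log2 fold changes below 0 with intervals that included 0. *Birc5* (survivin, of the chromosomal passenger complex) was at -0.39 (SE 0.35), *Nusap1* (a spindle microtubule bundler) at -0.33 (SE 0.43), *Kif23* (a kinesin of cytokinesis) at -0.27 (SE 0.33) and *Cenpe* (the kinetochore kinesin) at -0.24 (SE 0.30). *Cenpe* was measured at 3.47, 6.63, 7.66 and 9.66 CPM in WT mice and 5.91, 5.17, 5.801 and 6.12 CPM in KIKO mice. The KIKO values lay within the WT range. *Nusap1* was lowest in KIKO mice 3 and 4 (1.61 and 2.62 CPM) and as high in KIKO mice 1 and 2 (6.57 and 6.76 CPM) as in the upper WT mice. Reads of *Nusap1* could be shared with the opposite *Oip5* if strand was not used in counting. The gene spans, introns included, overlap by 172 bases, and the overlap of exons was not computed here or below.

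*Ube2c*, the only tested gene of the spindle checkpoint and anaphase-promoting complex group, had a mean of 4.89 ± 0.376 CPM in WT mice and 4.95 ± 1.53 CPM in KIKO mice (log2 fold change 0.02, SE 0.29), and its direction flipped without normalization (-0.05) and with the length offset (-0.05). The span of *Ube2c*, introns included, overlaps that of *Tnnc2* on the other strand by 1662 bases. *Stmn1*, which encodes the microtubule destabilizer stathmin, was measured at 6.31, 16.3, 21.3 and 10.7 CPM in WT mice and 12.5, 15.9, 8.70 and 11.1 CPM in KIKO mice. The WT mice held both the lowest and the highest value of *Stmn1* (log2 fold change -0.19, SE 0.31).

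**Figure D3:**
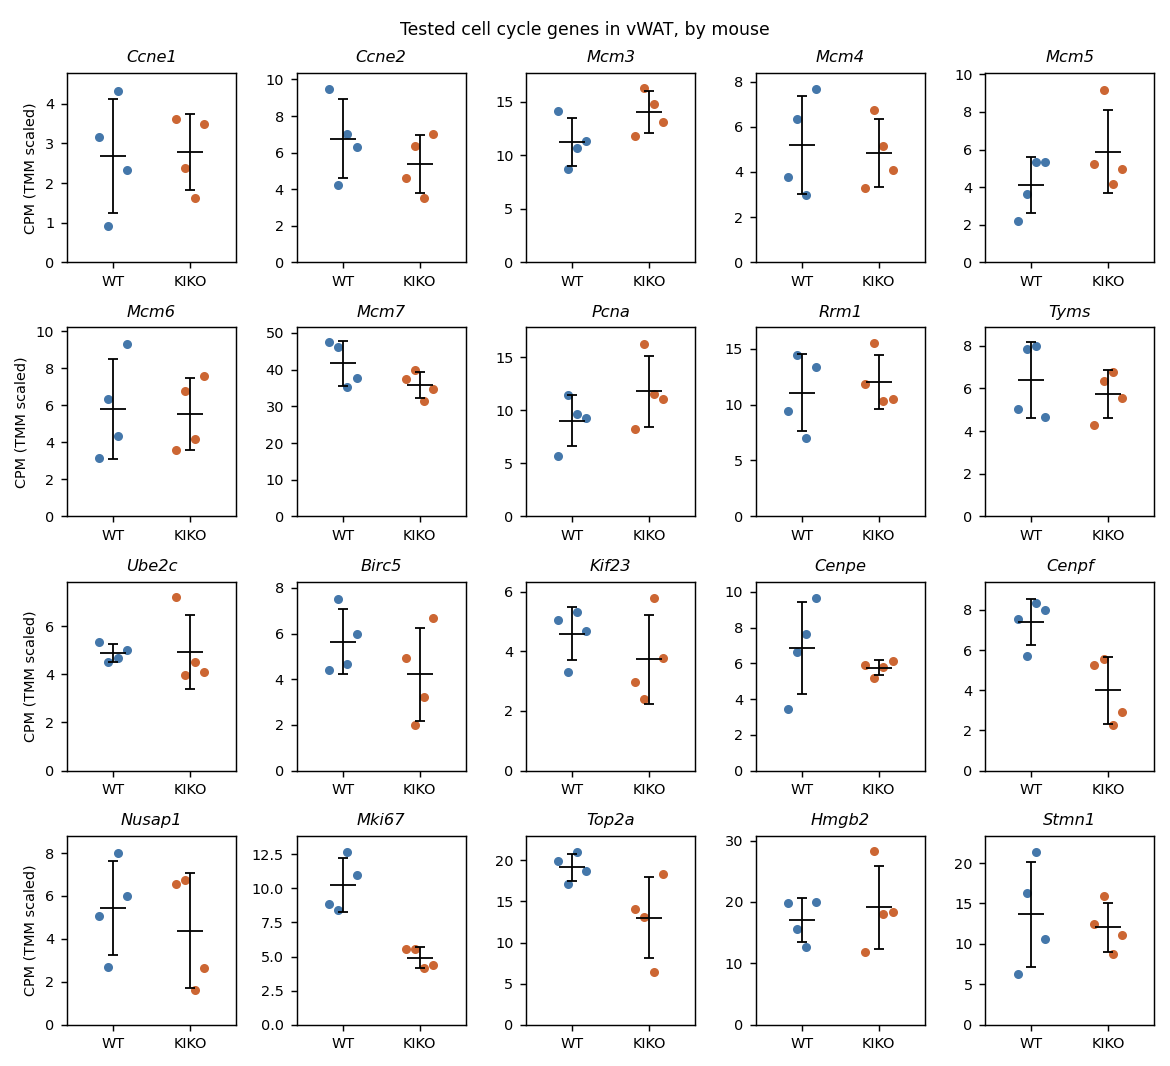
Level of each of the 20 tested cell cycle genes in CPM scaled by TMM (vertical axis, from 0), with 1 point per mouse, WT in blue and KIKO in orange, and the mean and SD (n = 4) as a bar with whiskers. The groups do not overlap for *Mki67* and *Cenpf*, and they overlap for the other 18 genes.

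Among the genes of G1/S and DNA replication, 10 of 12 were tested and their log2 fold changes were split, 5 below and 5 above 0. All 10 intervals included no change. The helicase that unwinds DNA at the replication fork is a ring of the 6 MCM proteins. *Mcm7* was measured at 47.6, 46.1, 35.3 and 37.6 CPM in WT mice and 37.4, 39.8, 31.6 and 34.7 CPM in KIKO mice (log2 fold change -0.22, SE 0.14, 95% interval -0.53 to 0.09). WT mice 1 and 2 lay above all the others, and WT mice 3 and 4 among the KIKO mice. *Mcm7* hosts the microRNAs miR-25, miR-93 and miR-106b, and its span overlaps that of *Ap4m1* by 421 bases on the other strand. Its count could hold reads of these only where they overlap its exons.

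*Mcm3* was measured at 14.2, 8.74, 10.7 and 11.3 CPM in WT mice and 11.8, 16.3, 14.8 and 13.1 CPM in KIKO mice (log2 fold change 0.31, SE 0.21). Only WT mouse 1 reached into the KIKO range. *Mcm5* had the largest value above 0 (log2 fold change 0.49, SE 0.35, 4.12 ± 1.51 and 5.88 ± 2.22 CPM), with KIKO mouse 2 at 9.14 CPM above the rest. *Mcm4* (-0.13, SE 0.35) and *Mcm6* (-0.06, SE 0.36) lay near 0 on the log2 scale. The estimates of the tested subunits thus lay on both sides of 0, and none differed by more than its error allows. Whether the subunits shared a direction cannot be told from these estimates.

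*Pcna*, the sliding clamp of the DNA polymerases, was measured at 5.68, 11.4, 9.66 and 9.33 CPM in WT mice and 8.21, 16.3, 11.6 and 11.1 CPM in KIKO mice (log2 fold change 0.37, SE 0.26). KIKO mouse 2 was again the highest, and the groups overlapped. *Rrm1*, the large subunit of ribonucleotide reductase, was measured at 9.46, 14.5, 6.99 and 13.3 CPM in WT mice and 11.8, 15.5, 10.3 and 10.5 CPM in KIKO mice (log2 fold change 0.11, SE 0.25). *Tyms*, which makes thymidylate, was measured at 5.05, 7.83, 7.99 and 4.67 CPM in WT mice and 4.27, 6.36, 6.77 and 5.54 CPM in KIKO mice (log2 fold change -0.16, SE 0.28). For these DNA synthesis genes the range within a genotype was wider than the difference between the means.

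The E cyclins start S phase together with CDK2. *Ccne2* was measured at 9.46, 4.22, 6.99 and 6.33 CPM in WT mice and 4.60, 6.36, 3.54 and 6.99 CPM in KIKO mice (log2 fold change -0.32, SE 0.31). *Ccne1* had 3 to 13 counts per library (log2 fold change 0.08, SE 0.44), and its interval of -0.86 to 1.01 was the widest of the tested genes. The span of *Ccne2*, introns included, overlaps that of *Ints8* on the other strand by 5622 bases.

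The 13 genes below the filter had 5 to 66 counts over all 8 libraries, and 11 of them belong to the 17 mitotic genes. Among the kinases and cyclins, *Cdk1* (43 counts in all) had 3 to 7 counts in every library, *Ccnb1* 0 to 8 and *Ccna2* 0 to 5, and *Plk1* (4 to 12) and *Aurka* (2 to 8) were similar. *Aurkb* had no count in 4 libraries and *Bub1* none in 5. *Mcm2*, *Rrm2*, *Bub1b*, *Cdc20* and *Tpx2* had 66, 29, 41, 54 and 60 counts in all. The genotypes overlapped in 12 of the 13, and a difference in any of these could be seen at this depth only if large.

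*Ccnb2*, which encodes cyclin B2, a partner of CDK1, was the exception (ENSMUSG00000032218, chromosome 9 from 70407692 to 70421547). It had 7, 5, 10 and 5 counts in WT and 4, 1, 0 and 3 counts in KIKO mice. All KIKO mice lay below all WT mice, by 1 count at the nearest. Among the 484 genes with 30 to 40 counts in all, 2.69% lay wholly lower in KIKO mice, and among all 18092 genes with a count 3.33% (2.70% lay wholly higher). The mean was 2.18 ± 0.825 CPM in WT mice and 0.646 ± 0.571 CPM in KIKO mice, the latter below 3 counts. In the fit without a filter the log2 fold change was -1.66 (edgeR adjusted p = 0.233). *Ccnb2* has 1531 exon bases and is the shortest of the 33 genes.

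**Figure D4:**
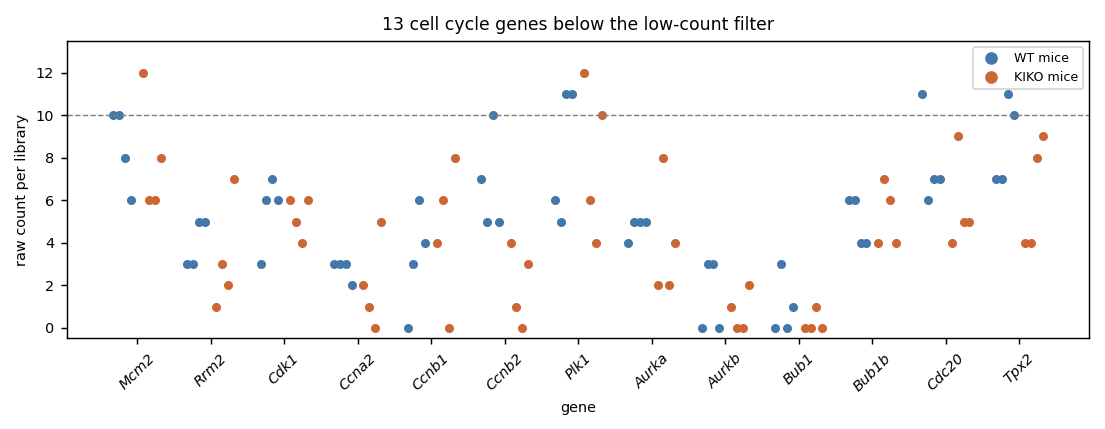
Raw count per library (vertical axis) of the 13 cell cycle genes below the low-count filter, with 1 point per mouse, WT in blue and KIKO in orange, and a dashed line at 10 counts. Only *Ccnb2* has all KIKO mice (0 to 4 counts) below all WT mice (5 to 10 counts).

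Summed over the 33 genes, the level was 208.5, 217.6, 227.4 and 228.9 CPM in WT mice and 189.1, 236.6, 166.6 and 201.1 CPM in KIKO mice. The WT mice lay within a narrow range and the KIKO mice on both sides of it, with KIKO mouse 2 the highest and KIKO mouse 3 the lowest of the 8. The mean sum was 220.6 ± 9.52 and 198.3 ± 29.2 CPM, a ratio of 0.899, or -0.15 on the log2 scale. The pooled SD of single mice on that scale was 0.155, most of the spread being in KIKO mice. This SD is not the error of the difference, which was not computed. *Mcm7* alone gave 18.6% of the summed count. The sum therefore leans on the replication genes, and it was taken apart by role.

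The 12 genes of G1/S and replication summed to 107.9 ± 6.49 CPM in WT mice and 107.5 ± 15.1 CPM in KIKO mice, a ratio of 0.997. The 17 genes of mitosis (the CDK1 cyclins, mitotic kinases, checkpoint and spindle genes) summed to 45.7, 46.1, 60.9 and 57.6 CPM in WT mice and 47.0, 44.5, 32.9 and 42.5 CPM in KIKO mice, a ratio of 0.793. KIKO mouse 1 lay above the lower WT mice, so the groups overlapped. Within these, the 6 spindle and kinetochore genes summed to 27.8, 28.0, 37.6 and 37.7 CPM in WT mice and 26.9, 23.5, 21.3 and 24.8 CPM in KIKO mice. For this sum all KIKO mice lay below all WT mice, with a ratio of 0.736. It includes *Cenpf* (7.40 ± 1.16 and 4.00 ± 1.66 CPM), the longest of the 6 and the only gene among them whose own groups did not overlap. The sum without *Cenpf* was not taken. The 3 genes with an unadjusted p under 0.05, put together after their values were seen, summed to 36.8 ± 4.37 and 21.9 ± 6.06 CPM, a ratio of 0.596, and the other 30 to 183.8 ± 8.14 and 176.4 ± 25.5 CPM, a ratio of 0.960. No test was run on these sums, because their genes were chosen with results known.

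**Figure D5:**
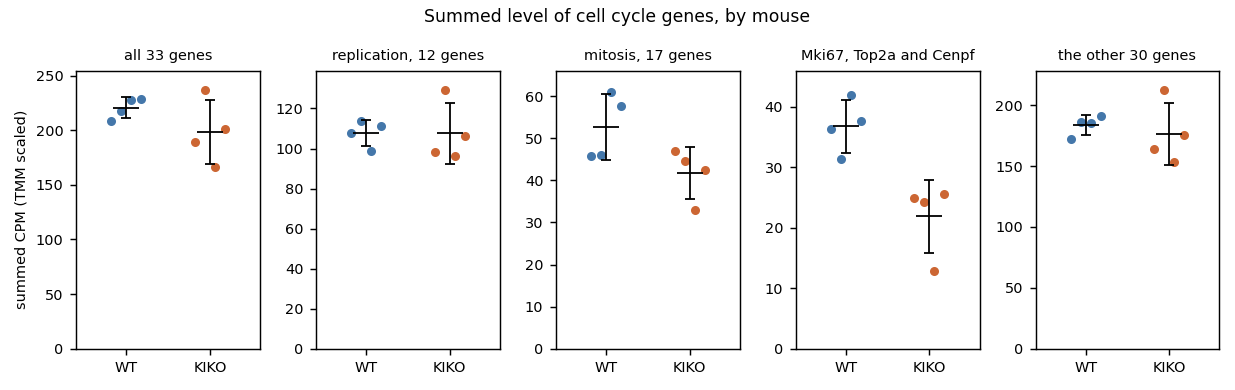
Summed level in CPM scaled by TMM (vertical axes, from 0) of all 33 cell cycle genes, the 12 replication genes, the 17 mitotic genes, *Mki67*, *Top2a* and *Cenpf* together, and the other 30 genes, with 1 point per mouse and the mean and SD (n = 4). The replication genes have a ratio of KIKO to WT of 0.997 and the mitotic genes of 0.793. Of the 5 sums shown the groups do not overlap for *Mki67*, *Top2a* and *Cenpf* together (ratio 0.596). These genes were put together after their values were seen to be lower in KIKO mice, so their sum is low by choice.

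The mice differed within each genotype. Of the 20 tested genes, KIKO mouse 3 had the lowest level of the 8 mice in 6 and WT mouse 1 in 5. WT mouse 3 had the highest level in 7 and KIKO mouse 2 in 5. KIKO mouse 4 was neither the highest nor the lowest in any. Without KIKO mouse 3, the median log2 fold change of the tested genes was -0.05, and without WT mouse 3 it was -0.13.

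Promoter elements were set beside the genotype difference in the 17 tested genes with a promoter entry. The 7 with a CHR match had a median log2 fold change of -0.27, with 5 below 0, and the 10 without one a median of 0.01, with 5 below 0. The 7 include *Mki67*, *Cenpf* and *Top2a*, each of 9000 or more exon bases, so the element and gene length are mixed here. The 6 with an E2F site had a median of 0.02 and the 11 without one -0.24. With the CCAAT box, the 13 with it had -0.06 and the 4 without it -0.25. These medians are descriptions over few genes and were not tested.

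A further 132 cell cycle genes, in lists drawn up by function, were read from the same fit. Of the 81 that were tested, 0 passed, where 0.677% of all tested genes passed. At an unadjusted p under 0.05, 10 were lower and 2 higher, against 9.06% lower and 7.13% higher of all tested genes. Below 0 lay 44 of the 81, against 51.0% of all tested genes, and the median log2 fold change was -0.05. Among the DNA replication genes (22 of 42 tested, median -0.13), *Atad2*, a chromatin ATPase of S phase, was measured at 16.7, 15.4, 14.3 and 13.7 CPM in WT mice and 9.52, 10.7, 9.99 and 10.5 CPM in KIKO mice (log2 fold change -0.56, SE 0.18, edgeR adjusted p = 0.153). Its groups did not overlap, and it has 16023 exon bases. *Slbp*, which binds the stem-loop of histone mRNAs (-0.79, SE 0.32), and *Casp8ap2*, also of histone mRNA synthesis (-0.38, SE 0.16), had groups that overlapped.

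Among the other genes of G2 and mitosis (20 of 42 tested, median -0.01), *G2e3*, a ubiquitin ligase, was measured at 29.0, 23.8, 21.3 and 20.3 CPM in WT mice and 11.8, 12.7, 15.2 and 15.4 CPM in KIKO mice. All KIKO mice lay below all WT mice (log2 fold change -0.77, SE 0.18, edgeR adjusted p = 0.0675), and the gene passed without a filter (0.0201) and without WT mouse 3 (0.0240), where 2.11% and 5.81% of all genes passed. *Ncapd2*, a condensin subunit, also had groups that did not overlap (24.0 ± 1.18 and 17.8 ± 3.21 CPM, log2 fold change -0.43, SE 0.17, edgeR adjusted p = 0.214). *Anln*, a scaffold of the cytokinetic ring, had a log2 fold change of -1.05 (SE 0.44) on 3 to 25 counts per library.

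Among the regulators of the cycle (19 of 25 tested, median -0.12), *Mnat1*, of the CDK-activating kinase, was measured at 49.1 ± 4.95 and 36.5 ± 5.96 CPM with groups that did not overlap (log2 fold change -0.43, SE 0.15, edgeR adjusted p = 0.167). The repressor *E2f6* was the only tested gene of these lists with groups apart in the other direction, at 11.8 ± 1.73 and 17.5 ± 5.11 CPM (log2 fold change 0.57, SE 0.22, edgeR adjusted p = 0.218), and KIKO mouse 3 held its highest value of 25.1 CPM. The activator *E2f2* was at -0.58 (SE 0.24). The E2F genes listed here thus pointed both ways, and none passed.

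The genes that hold the cycle back (20 of 23 tested, median -0.0048) were split evenly, 10 below and 10 above 0. *Rb1*, the retinoblastoma protein that binds E2F, was measured at 41.6, 43.7, 35.0 and 43.0 CPM in WT mice and 29.9, 32.2, 29.0 and 32.4 CPM in KIKO mice, with groups that did not overlap (log2 fold change -0.40, SE 0.13, edgeR adjusted p = 0.157). The antiproliferative *Btg1* was at -0.56 (SE 0.20) and the p53 target *Ccng1*, cyclin G1, at 0.43 (SE 0.14), both with overlapping groups. *Rb1*, *Btg1* and *Ccng1* passed without WT mouse 3, with adjusted p values of 0.0488, 0.0140 and 0.0194 from edgeR, in a fit in which 5.81% of all genes passed. In all, 6 of the 81 genes lay wholly lower and 1 wholly higher in KIKO mice, against 4.56% and 3.89% of all tested genes.

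Markers of cell types that may divide in a fat depot were read beside these genes, as whole lists. The 6 endothelial markers, among them *Pecam1* and *Cdh5*, had log2 fold changes of -0.37 to -0.28, all below 0, with 0 that passed, and summed to 476.5 to 596.4 CPM in WT and 302.2 to 506.6 CPM in KIKO mice. Of the 10 macrophage markers 8 lay above 0, among them *Adgre1* (13.8 ± 4.91 and 20.9 ± 1.82 CPM) and *Cd68* (34.6 ± 5.83 and 51.2 ± 3.62 CPM), 0 passed, and the sum was 1569 to 1901 and 1585 to 2094 CPM. The largest difference of that list lay below 0, for the phagocytic receptor gene *Mertk* (251 ± 83.6 and 129 ± 60.4 CPM, log2 fold change -0.97, edgeR adjusted p = 0.0959). The 6 progenitor markers, 4 above 0 (*Pdgfra*, *Dpp4*, *Cd34* and *Dcn*) and 2 below (*Pi16* at -0.36 and *Ly6a* at -0.03 on the log2 scale), summed to 2375 to 2814 and 2964 to 3508 CPM, most of it *Dcn* (2080 ± 125 and 2761 ± 215 CPM), and 0 of them passed. The progenitor sums of the genotypes did not overlap. The part of any of these cell types in the cell cycle genes was not tested.

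Of the 5 tested mesothelial markers 4 lay above 0 and 1 below. Only *Krt19*, a keratin, passed (14.6 ± 4.36 and 32.4 ± 7.09 CPM, log2 fold change 1.15, edgeR adjusted p = 0.0327). *Msln* (log2 fold change -0.18) and *Upk3b* (0.40) did not pass, and the list summed to 228.4 to 335.6 and 240.7 to 476.7 CPM. T cell markers summed to 18.3 to 21.3 and 18.1 to 25.1 CPM, with *Cd3e* and *Cd3d* at 2.80 and 2.50 CPM in WT mice and 2.55 and 3.12 CPM in KIKO mice. B cell markers summed to 284.8 to 488.4 and 237.4 to 533.4 CPM, nearly all of it *Ighm*, with *Cd79a* near 0 and *Cd79b* at 5.73 and 4.74 CPM. Erythroid markers, *Hbb-bs* and *Hba-a1* among them, summed to 3427 to 6724 and 3880 to 5181 CPM. Of the 6 germ cell markers *Prm1*, *Prm2* and *Tnp1* were at 0 in every library, and of the 6 epididymal markers 5 were at 0 throughout, with 4 counts of *Adam7* in WT mouse 2. In the T cell, B cell, erythroid, adipocyte and germ cell lists, 0 markers passed. Of the 6 adipocyte markers 5 lay above 0 and 1 below.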

How the data were processed

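Raw counts per Ensembl gene, deposited by the authors for 8 libraries of vWAT, were analysed. The authors also deposited log2 values, which are counts scaled by a factor for each library, with 1 added before the logarithm, and these served as an alternative only. The sources name Trimmomatic, HISAT2 and the GRCm38 build, and the paper's methods add StringTie. Library kit and instrument differ between the labels and the methods, so levels were not compared between genes per length, and the annotation release is not given in the sources used here.

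The table holds 31053 genes, of which 31011 were found in the annotation. Counts were fitted in R 4.3.3 with edgeR 4.0.16 (TMM, filterByExpr by genotype, quasi-likelihood test, genotype as the only term), and Benjamini-Hochberg adjusted p values cover the 11080 genes kept. SEs are those implied by the test statistic. Permutation tests of single genes, on log2(CPM + 0.5), ran over 70 assignments of the mice. The WT mice were littermates, but nothing in the sources states which mice shared a litter or batch. The main fit therefore leaves litter out, and p values measure the spread between these mice. The limit of 3 counts covers counting error only.

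The genes and lists were chosen with earlier results of these data known. Tested genes of interest were shown by mouse if the groups did not overlap, the gene passed, or it was among the 12 of highest mean CPM. Promoters were shown for 4 tested genes of different roles with the most matches (ties settled by symbol) and, after its values were seen, for *Mki67*. From each other cell cycle list the 3 smallest p values were named, and from each marker list (macrophage, T cell, B cell, erythroid, endothelial, progenitor, mesothelial, adipocyte, germ cell, epididymis) the first 2 genes and any that passed. *Mertk*, *Cd34*, *Pi16*, *Ly6a*, *Dcn*, *Ighm*, *Tnp1* and *Adam7* were named after their values were seen. Alternatives were RLE size factors, no normalization, other low-count filters, DESeq2 1.42.0, limma 3.58.1 (voom and trend), a replicate block, leaving out each mouse and, added after the data were examined, an offset for exon length per library (mgcv 1.9.3). The fit was tested on simulated data with known changes. The gene altered in these mice is not reported here.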

Additional observations from a re-analysis of the deposited data

Results flagged for a closer look

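Of 42 groups of 4 mice scored for a mouse that stands apart, 1 had such a mouse. The level of *Ube2c* was 7.22 CPM in KIKO mouse 1, against 3.98 to 4.51 CPM in the other KIKO mice, and the gap to the next mouse was 0.835 of the group's range, just past the limit of Dixon's test for 4 samples. Chance gives such a result in about 1 in 20 groups.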

How the results depend on the processing

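The count of cell cycle genes that passed was 0 under every alternative with 1 exception, the fit with no filter for low counts, in which 1 (*Mki67*) of the 33 passed. Under the alternatives, 1 to 4 of these genes had an unadjusted p under 0.05, all lower in KIKO mice. Of the other cell cycle genes, 1 passed with no filter and 0 to 4 when 1 mouse was left out, the 4 being *Btg1*, *Ccng1*, *G2e3* and *Rb1* without WT mouse 3, where 83 were tested and 5.81% of all genes passed. The median log2 fold change of the tested genes was -0.22 to -0.0534 when 1 mouse was left out, with -0.0534 without KIKO mouse 3, and the log2 ratio of the summed CPM was -0.25 to -0.08. Of 544 values of single genes under an alternative, 519 kept their direction and did not pass, 6 passed where they had not before, and 19 reversed. The 519 include values for which DESeq2 gave no adjusted p, and for those only the direction could be compared. The log2 fold change of *Ube2c* reversed to -0.0517 without normalization, -0.016 in limma-voom, -0.0044 in limma-trend, -0.00183 with the replicate block and -0.0493 with the length offset, and leaving out 1 mouse gave -0.216 to 0.113. Leaving out 1 mouse also turned the direction of *Ccne1* (-0.222 to 0.401), *Rrm1* (-0.0579 to 0.265), *Stmn1* (-0.431 to 0.101), *Mcm4* (-0.313 to 0.113), *Mcm6* (-0.268 to 0.259) and *Hmgb2* (-0.0795 to 0.324), each within its error. When 1 mouse was left out, *Mki67* lay between -1.14 and -0.934, *Cenpf* between -1.09 and -0.705 and *Top2a* between -0.776 and -0.317, and the length offset gave -0.92, -0.69 and -0.43. The cause of these shifts was not tested.

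Over the whole table the count of genes that passed was 75, and 0 to 654 when 1 mouse was left out (654 without WT mouse 3, 0 with WT mouse 2, WT mouse 4 or KIKO mouse 4 left out, where 1344, 1533 and 1328 genes had an unadjusted p under 0.05, and 48, 4, 19 and 18 without WT mouse 1, KIKO mouse 1, KIKO mouse 2 and KIKO mouse 3). It was 382 with no filter, 281 in DESeq2, 45 in limma-trend, 40 in limma-voom and 35 with the length offset. The mice were not paired in the main fit, since the sources state no pairs. The deviations of same-numbered mice correlated at -0.242 to 0.0549, and 0 WT mice correlated best with their own number. With so few mice per genotype, these correlations cannot show which mice shared a litter or batch. With the replicate number as a block 0 genes passed in edgeR, 1427 having an unadjusted p under 0.05, 3 of them among the cell cycle genes. Depth limits the result, since 12 of the 20 tested genes had a mean under 20 counts per library. Over all 20, the half-width of the 95% interval ran from 0.31 to 0.94 on the log2 scale.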
